A study of Saccharomyces cerevisiae with 16 samples.

Results

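Wild-type budding yeast that had been moved from galactose into glucose was followed between 30 and 120 min of glucose, to see which of the early changes in mRNA faded, which lasted and which appeared late. The comparison is made of 2 of the 16 libraries of the study, the wild-type strain YSB787 at 120 min and at 30 min of glucose. Cultures grew in synthetic complete medium, first on raffinose, with samples taken at 15, 30 and 120 min after a move to galactose, at 30 and 120 min after the move to glucose, and at 15 and 30 min of a second galactose pulse. No allele is labelled for YSB787 other than wild type, while the other strain of the study, YTK113, lacks HDA1 (hda1Δ), the catalytic subunit of a histone deacetylase complex. Each strain has 1 library at each stage, and nothing in the labels says whether the stages came from separate cultures, so no test across replicates exists and no p-value is given. The wild-type library at 120 min of the first galactose pulse gives the level before glucose, and the hda1Δ libraries of the same stages are set beside the counts as separately made libraries of another genotype. Of 6685 nuclear open reading frames (ORFs) listed, 5881 had a mean of at least 1 FPKM (a fragment count scaled to gene length and to the size of the library) over the 16 libraries and were compared.

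Glucose acts on yeast on several time scales. Sensors at the membrane and the hexokinase route switch hexose transporter genes and repress genes for other carbon sources through the Snf1 kinase and the Mig1 repressor. Protein kinase A and TOR, active in rich sugar, keep the stress factors Msn2 and Msn4 out of the nucleus and drive genes for ribosomes. Purine, amino acid and sulfur genes are under separate controls, among them Gcn4 and Bas1, that read the supply of amino acids and nucleotides.

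Aligned sequence in annotated genes came to 2.23 Gb at 120 min and 2.34 Gb at 30 min of glucose, and to 2.21 Gb in the galactose library, within the 1.67 to 2.51 Gb of all 16. Ratios were taken after adding 1 to each FPKM value, and a gene is called higher or lower at 2-fold or more. Brackets after a ratio hold a 95% exact binomial interval on fragments, which covers counting error only. HDA1, a check of the labels, stood at 34.3 FPKM at 120 min and 38.8 FPKM at 30 min in wild type and was listed at 0 in both hda1Δ glucose libraries. Some ORFs jumped between a normal level and almost nothing from library to library. Of the ORFs compared, 399 (6.78%) either did so among these 3 wild-type libraries, with under 3 fragments in 1 library and at least 3 FPKM in another, or lie within 1000 bases of a gene that did. They are called switching ORFs, and counts are given with and without them.

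Between 30 and 120 min the ORFs that fell outnumbered those that rose. 376 ORFs were 2-fold lower at 120 min (6.39% of those compared) and 115 were 2-fold higher (1.96%). Without switching ORFs 320 were lower and 65 higher, so 50 of the 115 higher calls rest on ORFs of that kind. The median ORF had a log2 ratio of -0.22 at 120 over 30 min, after 0.34 at 30 min of glucose over galactose. Medians of gene lists are given on this scale. Measured from the median of all ORFs at 120 over 30 min, 239 ORFs were lower and 191 higher, so higher calls made up 44.4% of all calls, against 23.4% without the shift. The centred level is therefore given where it changes the description of a gene group. In hda1Δ, 360 ORFs (6.12%) were lower and 108 (1.84%) higher. Of the wild-type calls, 219 of the 376 lower and 44 of the 115 higher ones passed 2-fold in the same direction there.

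In wild type most early rises were no longer 2-fold at 120 min, while most early falls still were. At 30 min of glucose 592 ORFs (10.1%) were 2-fold higher than in galactose, and 154 of them (26.0%) were still 2-fold higher at 120 min. Of the 237 ORFs (4.03%) that were 2-fold lower at 30 min, 148 (62.4%) were still lower at 120 min. Without switching ORFs these shares were 25.7% and 69.6%. The library at 30 min enters both steps with opposite signs, so an error in it alone would make a rise appear to fade, and the size of that error is not known with 1 library. The wild-type early rises had a median log2 ratio at 120 over 30 min of -0.56 in wild type and of -0.61 in hda1Δ, whose libraries did not enter the choice of these ORFs. The same medians over all ORFs were -0.22 and -0.35. At 120 min over galactose, the wild-type early rises had a median of 0.67 in wild type and 1.01 in hda1Δ. Their median was thus still past 2-fold at 120 min in hda1Δ, though not in wild type. Over all ORFs these medians were 0.16 and 0.27.

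Sorting by both steps gave 6 main patterns. An early rise faded when an ORF was 2-fold higher at 30 min, then 2-fold lower at 120 than at 30 min, and back within 2-fold of galactose. This was so for 137 ORFs (2.33%), with medians of 19.1 FPKM in galactose, 68.5 FPKM at 30 min and 22.0 FPKM at 120 min. Another 143 ORFs (2.43%) held their early rise within 2-fold, and 25 ORFs (0.425%) were late rises, within 2-fold of galactose at 30 min and then 2-fold higher at 120 min than both at 30 min and in galactose. An early fall faded in 55 ORFs (0.935%) and lasted in 110 ORFs (1.87%), and 92 ORFs (1.56%) were late falls by the same rule in the other direction. Besides these, 24 ORFs (0.408%) were 2-fold higher and 92 ORFs (1.56%) 2-fold lower at 120 than at 30 min yet stayed within 2-fold of galactose at both times. A further 287 ORFs (4.88%) lost their early rise without a 2-fold step, 14 ORFs (0.238%) rose early and ended 2-fold below galactose, 32 ORFs (0.544%) fell 2-fold at each step, and 4715 ORFs (80.2%) passed no threshold. Switching ORFs made up 58.2% of faded falls and 44.0% of late rises, but 19.7% of faded rises and 19.6% of late falls. Leaving them out left 110 faded rises, 111 lasting rises, 14 late rises, 23 faded falls, 89 lasting falls and 74 late falls.

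**Figure D1:**
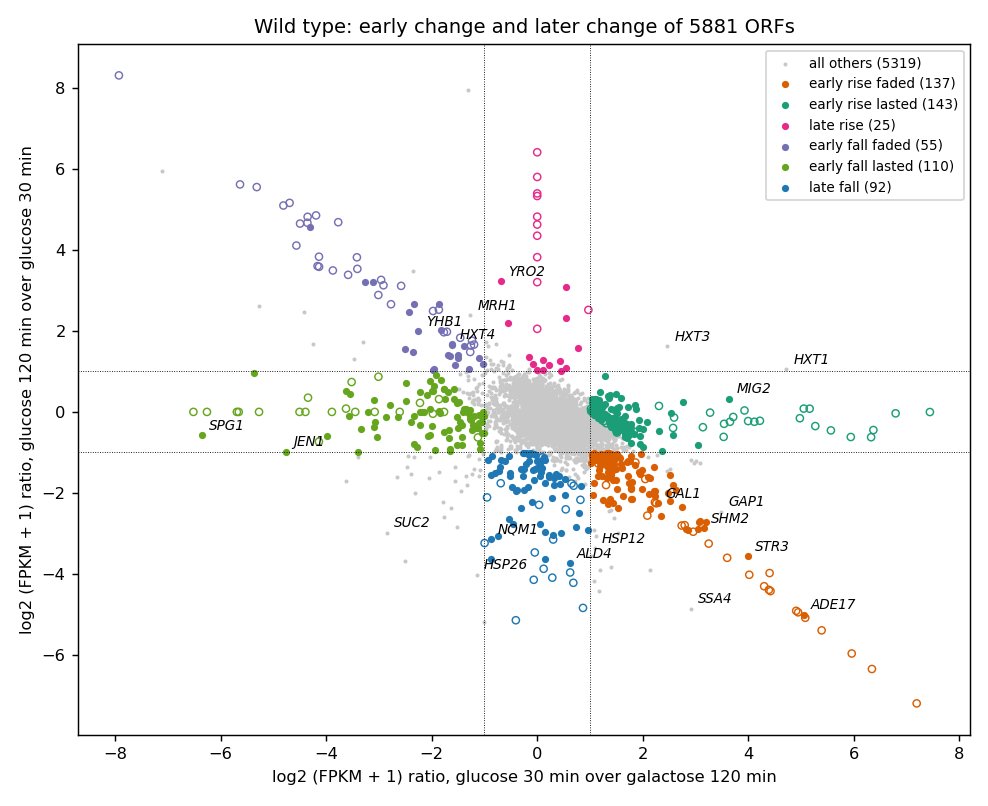
Each point is 1 of 5881 ORFs in wild type, with the log2 (FPKM + 1) ratio of glucose 30 min over galactose 120 min on the x axis and of glucose 120 over 30 min on the y axis. Colours mark the 6 patterns, open circles their switching ORFs and dotted lines 2-fold. Faded rises such as ADE17 and STR3 lie along the falling diagonal, where the later step undoes the early one, and 50 of the 115 ORFs above the upper line are switching ORFs.

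Many genes of purine synthesis and of the glycine-linked supply of carbon units rose early and were back near their galactose level by 120 min. Of the 25 genes of this list, 13 were 2-fold higher at 30 min of glucose than in galactose, beside 10.1% of all ORFs. At 120 min 13 were 2-fold lower than at 30 min, beside 6.39% of all ORFs. The list median was a ratio of 0.498, beside 0.857 for all ORFs, and 12 members met the full pattern of a faded rise, beside 2.33% of all ORFs. Centring left 12 lower, and in hda1Δ 12 were lower. ADE17 (YMR120C, chromosome XIII 507502 to 509280), which encodes an enzyme that closes the purine ring, measured 22.1 FPKM in galactose, 765 FPKM at 30 min and 23.0 FPKM at 120 min. That was 0.0313-fold (0.0286 to 0.0340) at 120 over 30 min, the lowest ratio among ORFs with no overlap, no repeats, no library near 0, no 4-fold difference between strains and at least 10 FPKM in a glucose library. In hda1Δ ADE17 was 0.0595-fold over the same interval.

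SHM2, the cytosolic serine hydroxymethyltransferase and the most abundant mRNA of the list at 30 min, measured 218 FPKM in galactose, 1965 FPKM at 30 min and 269 FPKM at 120 min, or 0.137-fold (0.133 to 0.142) at 120 over 30 min. GCV1 and GCV2, subunits of the glycine decarboxylase of mitochondria, measured 53.8, 396 and 51.4 FPKM for GCV1 and 48.1, 407 and 54.5 FPKM for GCV2 over the 3 stages and were 0.132- and 0.136-fold. The purine pathway itself followed the same course. ADE1 measured 87.8, 508 and 109 FPKM, ADE2 50.4, 226 and 41.9 FPKM, ADE13 121, 531 and 130.1 FPKM and ADE4, the first step of the pathway, 23.4, 145 and 40.6 FPKM. IMD3 and IMD4, which encode the enzyme that turns inosine monophosphate toward guanine nucleotides, were 2-fold higher at 120 min. IMD3 stood at 537 FPKM at 120 min and 262 FPKM at 30 min (2.05-fold, interval 1.98 to 2.12) and IMD4 at 392 FPKM at 120 min and 189 FPKM at 30 min (2.07-fold, interval 1.99 to 2.15), with 505 and 462 FPKM in galactose. The pair are similar in sequence, so reads may be shared, and both calls were lost with TPM.

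Many promoters of these genes hold a short element, TGACTC, which Gcn4 and Bas1 can bind. It was found on either strand in the 300 bases before the start codon of 15 of 25 genes of the list, beside 7.94% of all 5881 promoters, and of the 15 that hold it 12 were 2-fold lower at 120 min, against 1 of the 10 that do not. Stretches of 4 of these promoters are shown because ADE17, ADE1, SHM2 and GCV2 carry the faded rise at high levels. They come from RefSeq's R64 genome, 5′ to 3′ on the strand of the gene, at chrXIII:509425-509484 (minus strand), chrI:169127-169186 (plus), chrXII:259613-259688 (minus) and chrXIII:637200-637276 (plus), and capitals mark TGACTC or its reverse complement GAGTCA.
ADE17: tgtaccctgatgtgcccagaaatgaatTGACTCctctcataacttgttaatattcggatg
ADE1: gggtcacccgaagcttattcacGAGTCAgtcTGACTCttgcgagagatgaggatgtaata
SHM2: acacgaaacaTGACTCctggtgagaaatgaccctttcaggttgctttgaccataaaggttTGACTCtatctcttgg
GCV2: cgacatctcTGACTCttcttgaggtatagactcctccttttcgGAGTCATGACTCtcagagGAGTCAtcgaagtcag
ADE17 held 1 such element in its 300 bases, ADE1 and SHM2 2 each and GCV2 4. A match to these letters is a description and not a measured binding site.

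Part of the sulfur genes also rose early and fell back. Of 32 genes of sulfate assimilation and methionine synthesis, 19 were 2-fold higher at 30 min than in galactose, beside 10.1% of all ORFs. At 120 min 12 were 2-fold lower than at 30 min, beside 6.39% of all ORFs. Of these, 12 were faded rises, beside 2.33% of all ORFs. The list median was -0.86, or -0.64 after centring, and 19 members were lower in hda1Δ. STR3, which makes homocysteine from cystathionine, measured 1.05 FPKM in galactose, 31.5 FPKM at 30 min and 1.77 FPKM at 120 min, or 0.0850-fold (0.0672 to 0.110). MET17, the sulfhydrylase that fixes sulfide, measured 65.9 FPKM in galactose, 617 FPKM at 30 min and 92.5 FPKM at 120 min, or 0.151-fold (0.144 to 0.160). MET6, methionine synthase and the most abundant of the faded genes here, stood at 555 FPKM at 120 min and 1795 FPKM at 30 min, and MET3, ATP sulfurylase, at 12.7 FPKM at 120 min and 50.3 FPKM at 30 min. TGACTC was found before 8 of 32 of the sulfur genes, and of the 8 that hold it 2 were 2-fold lower at 120 min, against 10 of the 24 that do not.

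Of 10 arginine genes, 6 were 2-fold lower at 120 than at 30 min, beside 6.39% of all ORFs, with a list median of -1.09. Centring left 3 lower, and 7 were lower in hda1Δ. ARG3, ornithine carbamoyltransferase, measured 4.25 FPKM in galactose, 110.2 FPKM at 30 min and 6.06 FPKM at 120 min and was 0.0635-fold (0.0514 to 0.0774). Its neighbour TRL1 is a switching gene, so ARG3 counts as one too, although hda1Δ gave 0.105-fold. ARG5,6, whose product is cut into an acetylglutamate kinase and a reductase, measured 17.5 FPKM in galactose, 123 FPKM at 30 min and 23.6 FPKM at 120 min, or 0.198-fold (0.184 to 0.214). The element TGACTC was found before 9 of 10 of these genes, and of the 9 that hold it 5 were 2-fold lower at 120 min, as was the 1 that does not. Among 60 genes of amino acid synthesis, a list that shares members with these, 10 were lower, though 5 after centring, and 4 higher. HIS4 and HIS5 of histidine synthesis and LYS1 and LYS20 of lysine synthesis were on the lower side, at 0.355-, 0.326-, 0.463- and 0.477-fold. The higher ones belong to branched-chain and glutamate synthesis. ILV3, dihydroxyacid dehydratase, stood at 544 FPKM at 120 min and 176 FPKM at 30 min (3.09-fold, interval 2.98 to 3.20), LEU1 of leucine synthesis at 296 FPKM at 120 min and 110.2 FPKM at 30 min (2.67-fold, interval 2.57 to 2.78) and GLT1, glutamate synthase, at 137 FPKM at 120 min and 54.0 FPKM at 30 min (2.51-fold, interval 2.43 to 2.60). Each of these 3 had been 2-fold lower at 30 min than in galactose in wild type. In hda1Δ ILV3 had no such fall, with 199 FPKM in galactose and 256 FPKM at 30 min. LEU1 fell there by less than 2-fold, from 362 to 201 FPKM. ILV6, also higher, was listed at 0 at 120 min in hda1Δ and is uncertain.

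GAP1, the general amino acid permease, measured 21.4 FPKM in galactose, 251 FPKM at 30 min and 44.8 FPKM at 120 min and was still 2-fold above galactose at the end (0.182-fold, interval 0.170 to 0.194, at 120 over 30 min). GDH2, glutamate dehydrogenase, measured 56.8 FPKM in galactose, 156 FPKM at 30 min and 31.9 FPKM at 120 min. Of 30 iron regulon genes, 14 were higher at 30 min than in galactose, beside 10.1% of all ORFs. At 120 min 8 were lower and 1 higher than at 30 min, beside 6.39% and 1.96% of all ORFs. Relative to galactose 8 were 2-fold higher at 120 min, beside 3.71% of all ORFs. FIT2, a cell wall protein that retains siderophores, lost its early rise (92.4, 287 and 67.7 FPKM), whereas FTR1, the iron permease, held most of its own (40.9, 347 and 195 FPKM).

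GAL1, GAL10, GAL7 and GAL2 of wild type were 2-fold higher at 30 min of glucose than in galactose, and lower again at 120 min. In wild type GAL1 had stood at 2.98 FPKM in raffinose and at 4.15, 10.7 and 45.2 FPKM after 15, 30 and 120 min of the first galactose pulse. Among these libraries it was highest in the last one before glucose. What made these genes higher at 30 min of glucose was not tested. Of 12 galactose pathway genes, 7 were 2-fold lower at 120 than at 30 min, beside 6.39% of all ORFs, and 0 were higher. The list median was -1.51, and centring left 7 lower. In hda1Δ 9 were lower. GAL1 (YBR020W, chromosome II 279021 to 280607), galactokinase, measured 45.2 FPKM in galactose, 225 FPKM at 30 min and 46.6 FPKM at 120 min, or 0.210-fold (0.196 to 0.226). GAL10, the epimerase next to it, measured 37.4 FPKM in galactose, 271 FPKM at 30 min and 36.0 FPKM at 120 min. GAL7, the uridylyltransferase, and GAL2, the permease, ended below their galactose level, with 192, 431 and 19.0 FPKM for GAL7 and 52.5, 108 and 8.29 FPKM for GAL2. These were 0.0464-fold (0.0411 to 0.0523) and 0.0855-fold (0.0741 to 0.0980) at 120 over 30 min. From galactose to 30 min of glucose in hda1Δ, GAL1 (291 to 759 FPKM) and GAL10 (208 to 655 FPKM) rose 2-fold. GAL7 (919 to 918 FPKM) and GAL2 (253 to 340 FPKM) did not. At 120 min of glucose these 4 genes lay between 8.29 and 46.6 FPKM in wild type. GAL3, the galactose sensor, was 0.370-fold, GCY1, a minor target of Gal4, 0.332-fold and PGM2, phosphoglucomutase, 0.306-fold.

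Most general stress genes fell after 30 min. Of the 31 genes of the list, 23 were 2-fold lower at 120 than at 30 min, beside 6.39% of all ORFs, and 2 were higher. The list median was -1.53, while the median of glucose 30 min over galactose was -0.26, and 14 members were late falls. Centring left 19 lower, and hda1Δ had 17. In hda1Δ the list median was already -1.10 at 30 min over galactose, and it was -1.20 at 120 over 30 min. HSP12, a small membrane-associated stress protein, measured 1692 FPKM in galactose, 3605 FPKM at 30 min and 348 FPKM at 120 min, or 0.0969-fold (0.0917 to 0.102). SSA4, an inducible Hsp70, measured 51.2 FPKM in galactose, 394 FPKM at 30 min and 12.6 FPKM at 120 min, or 0.0344-fold (0.0308 to 0.0383). HSP26, a small heat shock protein, fell at both steps, with 265, 119 and 6.44 FPKM and 0.0619-fold (0.0474 to 0.0787) at the later one. In hda1Δ SSA4 was 0.115-fold and HSP12 0.0736-fold over the same interval.

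Other members stayed within 2-fold of galactose at 30 min before they fell, among them MSC1 at 480.0, 588 and 70.2 FPKM over the 3 stages, SPI1, for a cell wall protein, at 695, 563 and 108 FPKM and HSP104, the disaggregase, at 663, 637 and 199 FPKM. MSC1 was 0.121-fold (0.114 to 0.128) at 120 over 30 min, SPI1 0.194-fold and HSP104 0.314-fold. SIP18 was listed at 0 at 120 min in both strains and had 35.1 FPKM at 30 min, and it is a switching ORF. The 2 higher members were YRO2 and MRH1, described with the late rises. Of 35 chaperone genes, 10 were lower, beside 6.39% of all ORFs, and 0 higher. Their median was -0.67, and 4 were lower in hda1Δ. HSP82, an Hsp90, stood at 118 FPKM at 120 min and 493 FPKM at 30 min and SSA1, a constitutive Hsp70, at 678 FPKM at 120 min and 1889.6 FPKM at 30 min, 0.241- and 0.359-fold.

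The stress element AGGGG, the site of Msn2 and Msn4, was found on either strand before 25 of 31 of the general stress genes, and of the 25 that hold it 19 were 2-fold lower at 120 min, against 4 of the 6 that do not. It was found before 51 of 92 late falls (55.4%) and 49 of 110 lasting early falls (44.5%), beside 25 of 137 faded rises (18.2%) and 22.3% of all promoters. Outside the 6 main patterns, AGGGG was before 18 of the 32 ORFs that fell 2-fold at each step (56.25%). It was before 41 of the 68 ORFs (60.3%) that ended 2-fold below galactose without a 2-fold fall at either step. The promoter stretches of HSP12 and MSC1 are shown because both are among the larger falls at a high starting level. They lie at chrVI:107014-107080 (plus strand) and chrXIII:16794-16888 (minus) in the R64 genome, and capitals mark AGGGG or its reverse complement CCCCT.
HSP12: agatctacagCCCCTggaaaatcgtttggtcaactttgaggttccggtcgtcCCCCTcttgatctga
MSC1: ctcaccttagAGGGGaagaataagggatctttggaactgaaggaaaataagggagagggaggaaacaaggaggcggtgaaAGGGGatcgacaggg
Both hold 2 such elements in the 300 bases before the start codon. Over all promoters with the element 10.0% of ORFs were 2-fold lower at 120 min, against 5.34% of those without it.

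Other falls after 30 min were in aldehyde and fatty acid oxidation and in minor isoforms of sugar enzymes. ALD4, the mitochondrial aldehyde dehydrogenase, measured 595 FPKM in galactose, 914 FPKM at 30 min and 67.8 FPKM at 120 min, or 0.0752-fold (0.0711 to 0.0795). The cytosolic ALD3 measured 401 FPKM in galactose, 218 FPKM at 30 min and 16.6 FPKM at 120 min, or 0.0806-fold (0.0720 to 0.0898). ALD3 and ALD2 each hold 22.3% repeated sequence, so reads may be shared, and ALD2 was 0.354-fold (0.315 to 0.398). ACS1, the acetyl-CoA synthetase used without glucose, was 2-fold higher at 30 min before it fell, with 52.7, 112 and 5.23 FPKM. In hda1Δ ACS1 had no early rise, with 122, 76.0 and 8.63 FPKM. NQM1 and TKL2, the second transaldolase and transketolase of the pentose phosphate pathway, stood at 14.1 FPKM at 120 min and 132 FPKM at 30 min for NQM1 and 2.70 FPKM at 120 min and 21.3 FPKM at 30 min for TKL2, 0.113- and 0.166-fold. GND1, the main phosphogluconate dehydrogenase of that pathway, was 2.14-fold (2.06 to 2.22). Of 21 genes of fatty acid oxidation, 7 were lower, beside 6.39% of all ORFs, and 0 higher. Among the lower ones was POT1, the thiolase of peroxisomes, at 3.07 FPKM at 120 min and 26.6 FPKM at 30 min (0.148-fold, interval 0.117 to 0.188). FMP45, a membrane protein of the cell cortex, stood at 5.65 FPKM at 120 min and 54.5 FPKM at 30 min, and YNL195C and YDR034W-B, with no gene name, at 2.97 FPKM at 120 min and 30.7 FPKM at 30 min for YNL195C and 5.80 FPKM at 120 min and 51.7 FPKM at 30 min for YDR034W-B. OYE3, an old yellow enzyme, and ARO10, a decarboxylase of aromatic amino acid breakdown, rose early and then ended below galactose, with 19.8, 46.5 and 2.17 FPKM for OYE3 and 16.9, 77.8 and 4.30 FPKM for ARO10. Neither rose early in hda1Δ, with 63.5, 48.2 and 6.75 FPKM for OYE3 and 24.3, 20.1 and 4.24 FPKM for ARO10. Of 19 genes of trehalose and glycogen, 6 were lower, though 2 after centring, with GDB1, the debranching enzyme, at 0.350-fold.

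**Figure D2:**
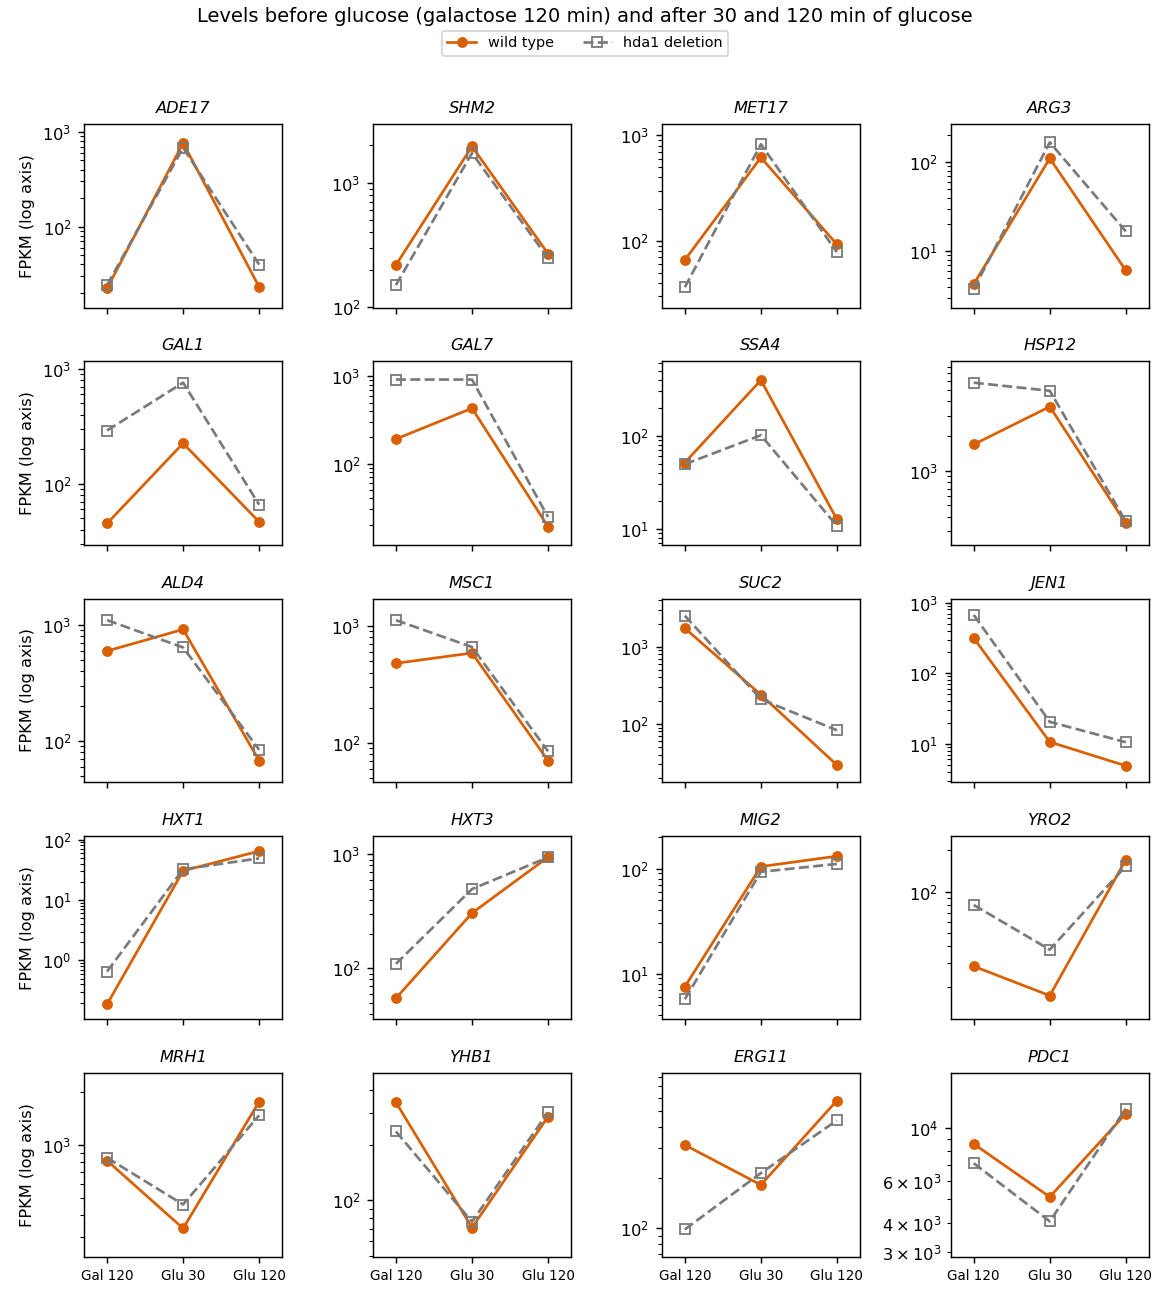
FPKM on a log axis for 20 genes in the library before glucose (Gal 120, galactose 120 min) and after 30 and 120 min of glucose, 1 library per point, with wild type in filled orange circles and hda1Δ in open grey squares. ADE17, SHM2, MET17 and ARG3 peak at 30 min in both strains, HSP12 and MSC1 fall after 30 min, and YRO2, MRH1 and YHB1 dip at 30 min.

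Proteasome genes moved together by a small step. Of 32 genes, 22 were 2-fold lower at 120 than at 30 min, beside 6.39% of all ORFs, and 0 were higher. The members spanned -1.48 to -0.31 on the log2 scale around a median of -1.05. Of the members, 16 were lower at 120 than at 30 min while within 2-fold of galactose at both times. Centring left 3 lower, beside 239 of all 5881 ORFs. In hda1Δ 3 were lower, beside 6.12% of all ORFs, and the list median was -0.85, beside -0.35 for all ORFs. In wild type the list median relative to galactose was -0.17 at 120 min and 0.89 at 30 min, when 8 members were 2-fold higher. RPN7, of the regulatory lid, measured 103 FPKM in galactose, 276 FPKM at 30 min and 98.1 FPKM at 120 min, or 0.358-fold (0.338 to 0.379), the largest fall of the list. PRE3, the catalytic subunit β1, measured 171 FPKM in galactose, 317 FPKM at 30 min and 135 FPKM at 120 min, or 0.426-fold (0.397 to 0.458). The proteasome element GGTGGCAAA, bound by Rpn4, was found before 26 of 32 genes of the list and 1.28% of all promoters, and of the 26 that hold it 19 were 2-fold lower at 120 min, against 3 of the 6 that do not. This motif was added after the values were seen. Of all 75 ORFs with it, 34 (45.3%) were 2-fold lower at 120 min, against 5.89% of those without it. The 75 include the 26 genes of the list, and the 34 include their 19, so this share is not separate from the list. Stretches of the RPN7 and PRE3 promoters follow because these genes fell most, at chrXVI:742275-742334 and chrX:435020-435079 (both plus strand), with the element or its reverse complement in capitals.
RPN7: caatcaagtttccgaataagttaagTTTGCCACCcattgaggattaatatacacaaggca
PRE3: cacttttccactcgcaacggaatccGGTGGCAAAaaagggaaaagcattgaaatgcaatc

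Many genes for other carbon sources fell early and stayed low or fell further. Of 21 such genes, 11 were 2-fold lower at 30 min than in galactose, beside 4.03% of all ORFs. Over the later step 10 were lower, beside 6.39% of all ORFs, and none was higher. At 120 min 13 were 2-fold lower than in galactose, beside 5.48% of all ORFs. In hda1Δ 9 were lower over the later step. JEN1, the lactate permease, measured 315 FPKM in galactose, 10.6 FPKM at 30 min and 4.87 FPKM at 120 min, and its ratio of 0.506-fold (0.416 to 0.615) over the later step missed the threshold. SUC2, invertase, fell at both steps, with 1736, 239 and 29.4 FPKM and 0.126-fold (0.116 to 0.137) at the later one, while hda1Δ gave 0.400-fold. Among the lasting falls were SPG1, a gene of stationary phase, at 315, 2.85 and 1.59 FPKM, HSP30 of the plasma membrane at 717, 16.3 and 32.5 FPKM, CTT1, the cytosolic catalase, at 588, 54.7 and 27.2 FPKM, RGI2, a gene of respiratory growth, at 37.9, 1.45 and 0.627 FPKM and BDH2, a putative butanediol dehydrogenase, at 128, 11.8 and 8.53 FPKM. HAP4, the activator of respiratory genes, measured 222, 61.9 and 107 FPKM and was 1.72-fold (1.61 to 1.84) over the later step, within 2-fold as measured and past it after centring. FBP1 and PCK1, the enzymes particular to gluconeogenesis, were low throughout, at 1.75 FPKM at 120 min and 1.53 FPKM at 30 min for FBP1 and 3.30 FPKM at 120 min and 5.95 FPKM at 30 min for PCK1. For SPG1 and RGI2 the later ratio rests on 6 and 4 fragments at 120 min and 11 and 9 at 30 min.

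Hexose transporter genes moved in different directions. HXT1 and HXT3, for high glucose, rose early and then further, and among the ORFs compared only these 2 (0.034%) did so. HXT3 (YDR345C, chromosome IV 1162957 to 1164660) measured 54.8 FPKM in galactose, 306 FPKM at 30 min and 946 FPKM at 120 min, or 3.09-fold (3.005 to 3.17) at 120 over 30 min, and hda1Δ gave 1.90-fold. HXT1 (YHR094C, chromosome VIII 290913 to 292625) measured 0.187 FPKM in galactose, 30.3 FPKM at 30 min and 64.4 FPKM at 120 min, or 2.09-fold (1.90 to 2.28), a call lost with a pseudocount of 5 or with scaling to the sum over ORFs, while hda1Δ gave 1.50-fold. HXT4, of intermediate affinity, fell early and came back, with 82.6, 26.4 and 85.5 FPKM and 3.16-fold (2.88 to 3.46). HXT6 and HXT7, high-affinity transporters of nearly the same sequence whose reads cannot be fully told apart, stood at 245 FPKM at 120 min and 522 FPKM at 30 min for HXT6 and 273 FPKM at 120 min and 587 FPKM at 30 min for HXT7. These were 0.470- and 0.465-fold, against 0.818- and 0.818-fold in hda1Δ, and both calls were lost after centring, at -0.87 and -0.88 on the log2 scale. HXT2, which serves low glucose, was 0.666-fold (0.644 to 0.689). HXK2, the main hexokinase in glucose, stood at 625 FPKM at 120 min and 414 FPKM at 30 min (1.51-fold, interval 1.46 to 1.55), below 2-fold.

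Lasting rises included regulators of glucose repression. MIG2, a repressor close to Mig1, measured 7.49 FPKM in galactose, 104 FPKM at 30 min and 131 FPKM at 120 min (1.25-fold, interval 1.17 to 1.34, over the later step), and STD1, a regulator of the glucose sensors, measured 14.9 FPKM in galactose, 56.5 FPKM at 30 min and 63.6 FPKM at 120 min (1.12-fold, interval 1.03 to 1.22). YOR062C, AQR1, for a transporter, and ARI1, a reductase, also held, with 10.6, 66.2 and 65.2 FPKM for YOR062C, 8.58, 56.2 and 37.4 FPKM for AQR1 and 30.7, 115 and 121 FPKM for ARI1. Ribosome assembly genes of wild type stayed above galactose by their medians, though most were within 2-fold of it at both times. The small subunit processome genes had a median log2 ratio over galactose of 0.66 at 120 min and 0.71 at 30 min. Large subunit assembly genes had 0.73 and 0.70, and RNA polymerase I and III genes 0.56 and 0.68. All ORFs had 0.16 and 0.34. In hda1Δ these medians at 120 and 30 min were 1.13 and 1.43 for the processome and 1.13 and 1.39 for large subunit assembly. For the polymerases they were 1.15 and 1.31 there, beside 0.27 and 0.56 for all ORFs. Over the later step in wild type the medians of these lists were -0.12, -0.02 and -0.12, which turn positive after centring. None of their 65, 72 and 37 genes passed 2-fold. Of 12 processome genes that were 2-fold higher at 30 min, 2 held the rise and 10 lost it without a 2-fold step. Of 13 large subunit genes 7 held it and 6 lost it, and of 8 polymerase genes 4 and 4. Lasting rises made up 2.43% of all ORFs, and 26.0% of all early rises were still 2-fold higher at 120 min. The PAC element GATGAG, common before such genes, was in 25.9% of promoters of lasting rises, 25.8% of rises lost without a 2-fold step, 16.8% of faded rises and 19.3% of all.

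Ribosomal protein genes were higher at 120 than at 30 min by a small, shared step that rarely reached 2-fold. The 137 genes had a median log2 ratio of 0.66 at 120 over 30 min, beside -0.12 at 30 min over galactose. In the later step 131 were above 0, and 2, RPS29A and RPL8B, passed 2-fold, against 30 after centring and none with TPM. Most of these genes come in near-identical pairs whose reads may be split between copies. Their median in hda1Δ was 0.77, with 11 genes 2-fold higher and 1 lower.

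Several of the genes that rose most after 30 min had been lower at 30 min than in galactose. YRO2 (YBR054W, chromosome II 343101 to 344135), for a membrane protein related to Hsp30, measured 28.4 FPKM in galactose, 17.4 FPKM at 30 min and 171 FPKM at 120 min, or 9.38-fold (8.24 to 10.7), and its relative MRH1 measured 815 FPKM in galactose, 337 FPKM at 30 min and 1758 FPKM at 120 min, or 5.20-fold (5.03 to 5.38). In hda1Δ they were 4.01- and 3.19-fold. YHB1, flavohemoglobin, which removes nitric oxide, measured 342 FPKM in galactose, 71.0 FPKM at 30 min and 286 FPKM at 120 min, or 3.98-fold (3.73 to 4.26). CYC1, the main cytochrome c, measured 146 FPKM in galactose, 27.8 FPKM at 30 min and 79.8 FPKM at 120 min, whereas CYC7, its form expressed at low oxygen, stood at 5.48 FPKM at 120 min and 12.9 FPKM at 30 min (0.466-fold, interval 0.294 to 0.715). Late rises without a prior 2-fold dip included PHO3, an acid phosphatase of the thiamine response, at 404 FPKM at 120 min and 169 FPKM at 30 min, INA1 at 196 FPKM at 120 min and 87.4 FPKM at 30 min, YIR035C at 142 FPKM at 120 min and 54.4 FPKM at 30 min, STP4 at 71.4 FPKM at 120 min and 28.6 FPKM at 30 min, YLR297W at 32.7 FPKM at 120 min and 14.8 FPKM at 30 min and CLB1, a mitotic cyclin, at 81.8 FPKM at 120 min and 40.0 FPKM at 30 min. STP4, YLR297W and CLB1 stayed within 2-fold in hda1Δ, at 1.19-, 1.19- and 1.09-fold.

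Some sterol, heme and cell wall genes linked to oxygen were also higher at 120 min. Of 28 ergosterol genes, 3 were 2-fold higher and 0 lower, with a median of 0.33, and 7 were higher after centring. ERG11, the sterol demethylase, stood at 576 FPKM at 120 min and 181 FPKM at 30 min (3.17-fold, interval 3.06 to 3.29) and ERG3, the desaturase, at 568 FPKM at 120 min and 215 FPKM at 30 min (2.64-fold, interval 2.53 to 2.75). HEM13, which makes protoporphyrinogen and rises when oxygen or heme is short, stood at 107 FPKM at 120 min and 31.4 FPKM at 30 min (3.32-fold, interval 2.98 to 3.71). TIR1 and TIR3, cell wall mannoproteins, stood at 196 FPKM at 120 min and 76.0 FPKM at 30 min for TIR1 and 68.3 FPKM at 120 min and 14.3 FPKM at 30 min for TIR3, 2.56- and 4.54-fold, with 3.18- and 3.98-fold in hda1Δ. Of the 24 genes in the list of DAN, TIR and related genes, 4 were higher and 1 lower. FET4, a low-affinity iron transporter that also answers to oxygen, stood at 25.9 FPKM at 120 min and 9.33 FPKM at 30 min (2.60-fold, interval 2.23 to 3.03).

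Few glycolytic genes passed 2-fold, while isoforms of an enzyme moved in opposite directions. The 20 glycolytic genes had a median of 0.42 (0.57 in hda1Δ), or 0.64 after centring, after -0.55 at the earlier step. In wild type 13 were above 0, 1 was 2-fold higher and 2 were 2-fold lower, against 4 higher and 1 lower in hda1Δ. TDH2, a glyceraldehyde phosphate dehydrogenase, stood at 5209.8 FPKM at 120 min and 2352 FPKM at 30 min (2.21-fold, interval 2.18 to 2.24) and its isoform TDH1 at 380.3 FPKM at 120 min and 1446 FPKM at 30 min (0.263-fold, interval 0.255 to 0.272). The TDH genes are alike in sequence, so reads may be shared. PDC1, the main pyruvate decarboxylase, stood at 11443 FPKM at 120 min and 5124 FPKM at 30 min (2.23-fold, interval 2.22 to 2.25), after 8542 FPKM in galactose. GCR2, also in the list, was listed at 0 at 120 min and in galactose and is a switching ORF.

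Several groups held few 2-fold calls. Of 17 TCA cycle genes 2 were lower and 0 higher, and of 38 nuclear genes of the respiratory chain 2 were lower and 1 higher, with medians of -0.04 and -0.10 that turn positive after centring. Mitochondrial ribosomal protein genes were below the median of all ORFs at -0.41, with 1 of 69 past 2-fold, MRPL19, which is a switching ORF listed at 0 at 120 min. The 10 histone genes had a median of 0.40, with 10 above 0, none past 2-fold and 1 past it after centring. For 34 G1/S genes the median was -0.12, with 2 lower calls, both on switching ORFs, and CLN2, a G1 cyclin, was 0.945-fold (0.881 to 1.01). The 24 genes of daughter cell separation and early G1 had a median of -0.83, with 23 below 0, 3 past 2-fold and 0 after centring. In hda1Δ 7 of them were lower. PHO84, the phosphate transporter, was listed at 0.735 FPKM at 120 min and 0.901 FPKM at 30 min.

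The calls in the other lists are read against 6.39% of all ORFs lower and 1.96% higher. There were 2 lower and 1 higher of 14 fermentation genes, 4 lower and 1 higher of 11 pentose phosphate genes, 0 lower and 2 higher of 2 high-glucose transporter genes, 3 lower and 1 higher of 5 low-glucose transporter genes and 0 lower and 0 higher of 3 other hexose transporter genes. Signalling and starvation lists gave 1 lower and 0 higher of 22 glucose sensing genes, 3 lower and 0 higher of 16 genes of gluconeogenesis and the glyoxylate cycle, 9 lower and 0 higher of 19 stationary phase genes, 4 lower and 0 higher of 28 autophagy genes and 4 lower and 0 higher of 23 nitrogen catabolite genes. Metal, nutrient and cell cycle lists gave 2 lower and 1 higher of 17 copper and zinc genes, 2 lower and 0 higher of 17 amino acid permease genes, 1 lower and 1 higher of 21 phosphate regulon genes, 0 lower and 1 higher of 19 thiamine genes and 0 lower and 2 higher of 22 G2/M genes. The last lists gave 1 lower and 2 higher of 25 mating genes, 2 lower and 0 higher of 14 DNA damage genes, 1 lower and 0 higher of 13 meiosis genes, 0 lower and 0 higher of 41 translation factor genes and 0 lower and 0 higher of 18 fatty acid synthesis genes. In the stationary phase list SPG4, a gene of that phase, stood at 6.04 FPKM at 120 min and 89.5 FPKM at 30 min (0.0778-fold, interval 0.0537 to 0.110).

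**Figure D3:**
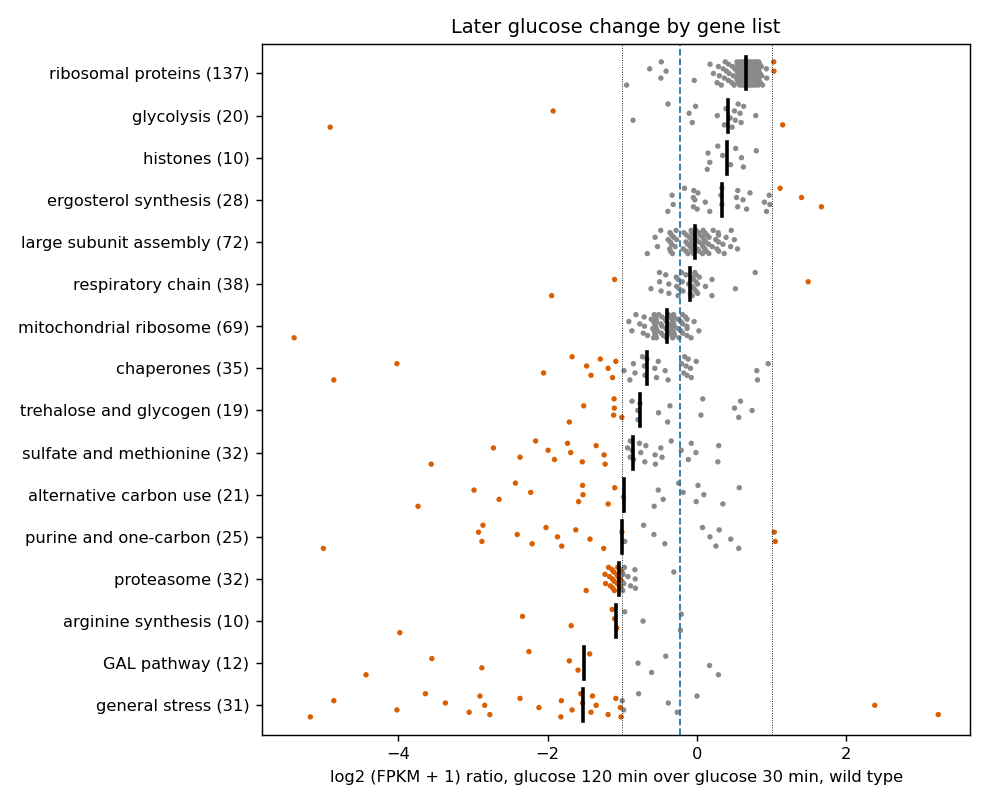
Log2 (FPKM + 1) ratio of glucose 120 over 30 min in wild type for the tested members of 16 gene lists, with the number of genes in brackets. Each point is a gene, orange past 2-fold, black bars are list medians, and the dashed line is the median of all 5881 ORFs at -0.22; proteasome genes gather at the 2-fold line and ribosomal proteins lie together above 0.

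How often the separately made hda1Δ libraries gave the same change varied by pattern. The same pattern, with both of its steps, was met in hda1Δ by 102 of 143 lasting rises (71.3%, beside 13.6% of all ORFs) and 82 of 110 lasting falls (74.5%, beside 3.83% of all ORFs). It was met by 55 of 137 faded rises (40.1%, beside 1.97% of all ORFs) and 29 of 92 late falls (31.5%, beside 1.6% of all ORFs), and by 11 of 55 faded falls (20.0%, beside 0.595% of all ORFs) and 7 of 25 late rises (28.0%, beside 0.714% of all ORFs). By the later step alone, of the 137 faded rises 82 (59.9%) fell 2-fold in hda1Δ, as did 55 of the 92 late falls (59.8%), beside 6.12% of all ORFs. Of the 55 faded falls 18 rose 2-fold in hda1Δ, and of the 25 late rises 9, beside 1.84% of all ORFs. Without switching ORFs these were 11 of 23 and 4 of 14. Of the 14 ORFs that rose early and ended 2-fold below galactose, 1 (7.14%) met the same pattern in hda1Δ. Over the later step 13 of them fell 2-fold there, beside 6.12% of all ORFs. Their median log2 ratio at 30 min over galactose was 0.06 in hda1Δ and 1.28 in wild type. Whether the strains differ in these patterns was not tested.

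**Figure D4:**
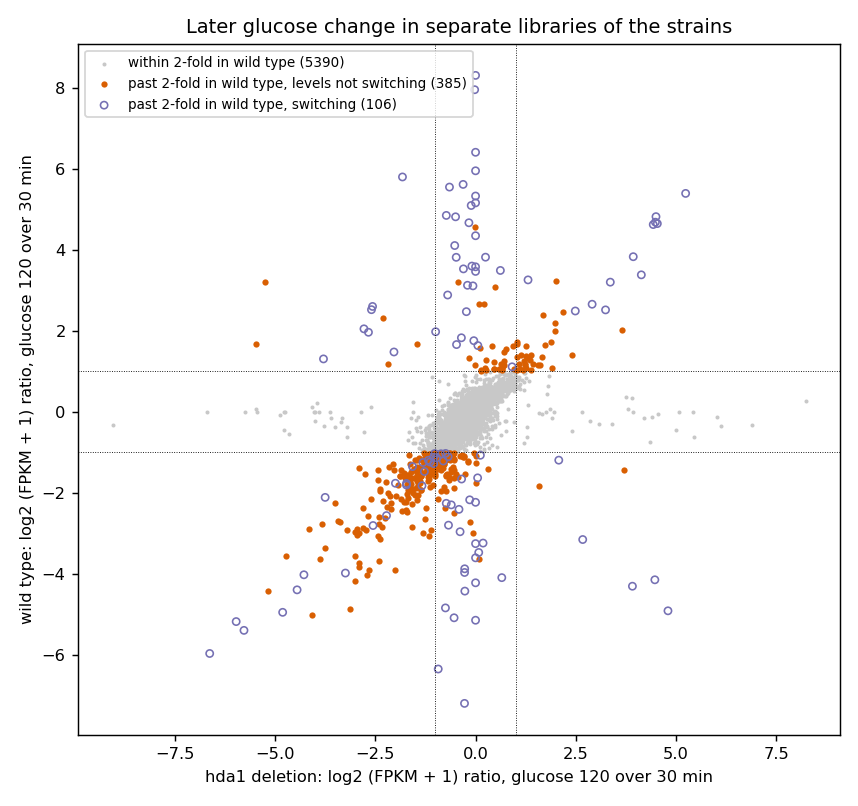
Log2 (FPKM + 1) ratio of glucose 120 over 30 min for 5881 ORFs, with hda1Δ on the x axis and wild type on the y axis, 1 library per strain and time. Orange points passed 2-fold in wild type, open purple circles did so and are switching ORFs, and dotted lines mark 2-fold. Of the orange and purple points, 219 of the 376 lower ones and 44 of the 115 higher ones are past 2-fold on both axes in the same direction.

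Near the top of the ranking, YJL068C, RCY1 and OTU2 lie beside a gene that switched. YJL068C stood at 57.8 FPKM at 120 min and 4.64 FPKM at 30 min beside MPM1, RCY1 at 12.6 FPKM at 120 min and 1.37 FPKM at 30 min beside PRP21, and OTU2 at 22.9 FPKM at 120 min and 5.73 FPKM at 30 min beside YLF2. PRP21 and YLF2 were listed at 0 at 120 min and at 15.2 and 8.51 FPKM at 30 min, and MPM1 was listed at 0 in galactose. The ratios of these 3 ORFs, 10.4-, 5.73- and 3.55-fold, are therefore uncertain. In hda1Δ they were 17.6-, 9.46- and 0.783-fold, and what made the neighbours switch was not tested.

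The share of promoters with a short element was also counted for each pattern, with no test of a difference. The Gcn4-type element was in 23.4% of promoters of faded rises, 11.2% of lasting rises and 13.0% of late falls, and in 6.36% of lasting falls, 3.64% of faded falls and none of the late rises, beside 7.94% of all. Over the 6 patterns the Mig1 element (GCGGGG) lay between 2.10% of lasting rises and 9.09% of lasting falls, beside 3.04% of all, and the RRPE element (AAAATTTT) between 2.17% of late falls and 12.6% of lasting rises, beside 9.34% of all. The heat shock element (TTCNNGAA) lay between 8.76% of faded rises and 24.0% of late rises, beside 12.9% of all, the MCB element (ACGCGT) of G1/S genes between 0.909% of lasting falls and 7.61% of late falls, beside 3.49% of all and the SCB element (CACGAAA) between 0% of late rises and 5.59% of lasting rises, beside 4.46% of all. The late rises number 25, so 1 promoter moves their share by several percent. The Upc2 element of sterol genes (TCGTATA) was in 6 of 28 ergosterol promoters and 4.54% of all, and the Cbf1 or Pho4 element (CACGTG) in 10 of 32 sulfur promoters and 3.38% of all. Each was searched on both strands.

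**Figure D5:**
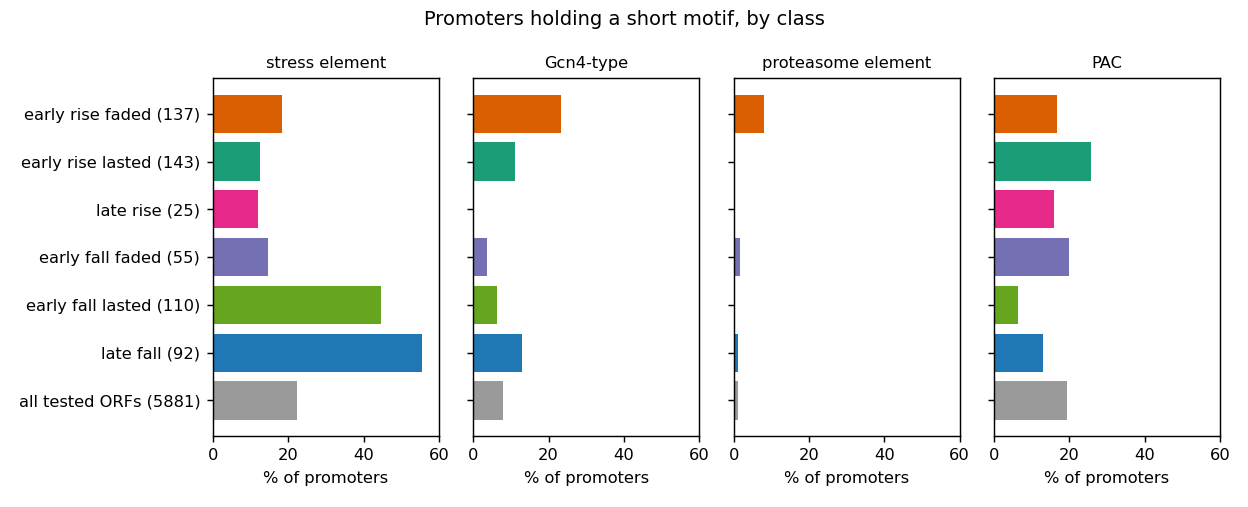
Percent of promoters (300 bases before the start codon) that hold each of 4 short elements, on the x axes, for the 6 patterns and all 5881 ORFs, with the number of promoters in brackets. Bars start at 0. Among the 6 patterns shown, the stress element is most frequent before late falls and lasting early falls, and the Gcn4-type element before faded rises.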

How the data were processed

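RNA was extracted with hot phenol, and directional mRNA libraries were sequenced on a HiSeq2500. Per the submitters' processing notes, reads were checked with FastQC 0.11.5, aligned with HISAT2 2.0.4 to the R64 (sacCer3) genome and summarised with StringTie 1.3.0. The deposited files hold FPKM and TPM values that the authors computed per gene and library; the file headers show no strand option, so antisense and overlapping genes may share reads. Here ratios were taken on FPKM + 1 in Python 3.11.15 with pandas 2.3.3 and SciPy 1.17.1, after leaving out ORFs that averaged under 1 FPKM across the 16 libraries, and called at 2-fold. Fragments for the 95% intervals were recovered from coverage and length at 202 bases each, which assumes paired reads of 101 bases. Promoters were the 300 bases before the start codon, and 35.0% of them reach another ORF.

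Genes named are 14 set genes, the 10 highest and lowest ratios, 6 per pattern and the 2 highest and lowest past 2-fold of each of 45 lists. Overlapping, repeated, near-0 and strain-discordant ORFs were left out of the rankings over all ORFs and per pattern, but not of those per list. ADE1, ADE2, ADE4, ADE13, MET3, MET6, HIS4, HIS5, LYS1, LYS20, GLT1, GAL3, GCY1, SPI1, HSP104, HSP82, SSA1 and TIR1 were named after their values were seen. The comparison, its lists and rules were chosen with earlier results of these data known, and the switching rule and the proteasome element were added after the values were seen. The alternatives were other pseudocounts, TPM, other scalings and thresholds, other sets of ORFs and another library before glucose.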

Additional observations from a re-analysis of the deposited data

Results flagged for a closer look

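Of the genes named, 4 changed at least 2-fold in opposite directions in the strains between 30 and 120 min of glucose. Each had a library listed at 0, and the difference between strains was not tested. GCR2, an activator of glycolytic genes, was listed at 0 at 120 min and 29.0 FPKM at 30 min in wild type, a ratio after adding 1 of 0.0333, against 27.8 in hda1Δ, where it was listed at 0 at 30 min. POL2, a DNA polymerase subunit, was listed at 0 at 120 min and 16.7 FPKM at 30 min in wild type, a ratio of 0.05661, against 22.2 in hda1Δ, where it was listed at 0 at 30 min. ILV6, the regulatory subunit of acetolactate synthase, stood at 29.4 FPKM at 120 min and 8.51 FPKM at 30 min in wild type, a ratio of 3.196, against 0.0224 in hda1Δ, where it was listed at 0 at 120 min. CTR2, a copper transporter of the vacuole, stood at 51.0 FPKM at 120 min and 9.41 FPKM at 30 min in wild type, a ratio of 4.992, against 0.201 in hda1Δ, where it was listed at 0 at 120 min.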

How the results depend on the processing

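No paired analysis was possible because each strain has 1 library per stage, and for the same reason no library could be left out. The counts in the report come from FPKM + 1 and a 2-fold threshold. Lasting rises outnumbered lasting falls as run, 143 against 110, but not under every alternative. They numbered 80 against 181 after centring, 78 against 92 with a pseudocount of 5 and 40 against 68 at 3-fold. With galactose 30 min as the library before glucose they were 89 against 93. Counts over all ORFs and per pattern that moved by more than 1.5 times are given first, and the cause was not tested. With a pseudocount of 5, lasting rises numbered 78. Centred on the median of all ORFs, 191 ORFs were higher and 239 lower at 120 than at 30 min, with 85 faded rises, 80 lasting rises and 181 lasting falls. At 3-fold, 69 were higher and 152 lower, with 55 faded rises, 40 lasting rises, 16 late rises, 68 lasting falls and 54 late falls. At 1.7-fold, 196 were higher and 626 lower, with 265 faded rises, 294 lasting rises, 45 late rises and 140 late falls. Without ORFs near 0 in a library, 35 faded falls were left. Without ORFs that differ at least 4-fold between strains, 68 were higher, with 16 late rises and 24 faded falls. With galactose 30 min as the library before glucose, lasting rises numbered 89. Without switching ORFs, an alternative chosen after seeing the data, 65 were higher, with 14 late rises and 23 faded falls.

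Counts of members per gene list moved that far in 25 cases after centring, 9 with scaling to the sum over ORFs, 8 with a pseudocount of 5, 6 with TPM, 3 without switching ORFs and 1 with a pseudocount of 0.1.

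Of the 113 genes the rule names, 94 were past 2-fold at 120 over 30 min. Of these, 94 were still past it with a pseudocount of 0.1, 88 with 5, 89 with TPM, 85 after centring and 86 with scaling to the sum over ORFs. Genes with few fragments, such as SPG1 and RGI2, have wide intervals, and the intervals leave out variation between cultures, which 1 library cannot show.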

Other observations

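Genes for small nuclear, small nucleolar, transfer and ribosomal RNA, which are outside the ORFs compared, held some of the largest ratios between the glucose libraries. Of 86 with at least 10 FPKM in a glucose library, 6 were 2-fold higher and 7 were lower at 120 than at 30 min, and their median log2 ratio was -0.07. snR10, a small nucleolar RNA gene, stood at 1824 FPKM at 120 min and 0.565 FPKM at 30 min. The overlapping forms of the U5 small nuclear RNA traded places. snR7-S, the short form, stood at 1262 FPKM at 120 min and 1.05 FPKM at 30 min, and snR7-L, the long form, at 6.42 FPKM at 120 min and 1025 FPKM at 30 min. snR190 stood at 55.4 FPKM at 120 min and 7695 FPKM at 30 min. Ribosomal RNA genes, each of which has other copies of the same sequence, moved in both directions, with RDN18-1 at 6.18 FPKM at 120 min and 121 FPKM at 30 min, RDN58-1 at 87.7 FPKM at 120 min and 1.65 FPKM at 30 min and its copy RDN58-2 at 91.3 FPKM at 120 min and 1.10 FPKM at 30 min. The values are given as listed, and what made them switch was not tested.

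Of the genes on the mitochondrial genome, 13 had at least 10 FPKM in a glucose library and none passed 2-fold, with log2 ratios at 120 over 30 min between -0.33 and 0.26.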
